A study of Mus musculus with 9 samples.

Results

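Of 24011 genes measured in mouse large intestine, 10 encode secreted or transport proteins of the gut lining's innate defence: Saa1, Saa2, Saa3, Mptx1, Reg3b, Reg3g, Retnlb, Lcn2, Ang4 and Pigr. They were picked by Entrez Gene number, and the choice was made with earlier results on these same arrays known. Their differences from control, and whether these passed the calling threshold used for all genes, are therefore given as descriptions from which nothing is read. The comparison of both knockdown lines with each other was tested as well. It uses the same arrays, so its p-values are not independent of the choice of genes. The label calls them epithelial, but RNA from whole tissue does not say which cells a transcript came from. In bulk tissue, fewer cells of a type and less RNA per cell cannot be told apart.

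The arrays measured total RNA of C57BL/6 mice that carried a hairpin transgene together with rtTA, the activator through which doxycycline switches the hairpin on. The control hairpin, FLuc.1309, targets firefly luciferase, a gene that mice lack. The other hairpins, DHX9.1271 and DHX9.837 (here DHX9-1271 and DHX9-837), target Dhx9, which encodes a helicase that unwinds RNA and DNA. All groups, control included, drank doxycycline at 1 mg/ml with 5% sucrose for 14 days from 4 weeks of age. There were 3 arrays per group and 9 in all. The sources used here do not give the promoter that drives rtTA, the number of founder lines, or whether each array came from its own animal, so p-values measure only the spread between these samples.

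Serum amyloid A proteins are small apolipoproteins of the acute-phase response that liver, fat, macrophages and gut epithelium can make, and in the gut they are known to respond to microbes and to carry retinol. IL-22 and IL-6, acting through STAT3, and IL-1 and TNF, acting through NF-kB and C/EBP factors, are the textbook inducers of this class of genes. Reg3b and Reg3g encode C-type lectins that bind bacteria, Ang4 encodes a ribonuclease and Retnlb a resistin-like protein of secretory cells, Lcn2 encodes lipocalin-2, which withholds iron from bacteria, and Mptx1 encodes a mucosal pentraxin. Pigr encodes the polymeric immunoglobulin receptor, which carries IgA across the epithelium into the lumen.

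The promoters of Saa1, Saa3 and Mptx1, which were lower than control in the knockdown arrays, are printed below. That of Pigr, also lower in every knockdown array, is not printed. Also shown are those of Saa2, a close copy of Saa1, and of Reg3b and Reg3g, which varied together between arrays. Each is the stretch of 250 bases that ends at the base before the gene's start, read on the gene's own strand, from RefSeq (GRCm38.p6). The promoters of 9 of the 10 genes were in the RefSeq table, and Retnlb was not matched. Capitals mark matches to the motifs searched, read on either strand. The STAT motif was TTCNNNGAA and the C/EBP motif was TTNNGNAA. The NF-kB motif and the core promoter motif TATAAA were searched as well. No base belonged to matches of more than 1 motif.
Saa1: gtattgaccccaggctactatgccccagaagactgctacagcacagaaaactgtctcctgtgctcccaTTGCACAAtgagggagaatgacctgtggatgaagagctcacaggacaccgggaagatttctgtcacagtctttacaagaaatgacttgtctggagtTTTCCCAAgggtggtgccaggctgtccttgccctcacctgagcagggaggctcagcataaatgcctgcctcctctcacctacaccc
Saa2: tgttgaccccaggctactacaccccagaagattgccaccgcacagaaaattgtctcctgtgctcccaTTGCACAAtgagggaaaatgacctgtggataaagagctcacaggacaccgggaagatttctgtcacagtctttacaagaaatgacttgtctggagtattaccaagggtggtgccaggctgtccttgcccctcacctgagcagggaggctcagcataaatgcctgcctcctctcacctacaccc
Saa3: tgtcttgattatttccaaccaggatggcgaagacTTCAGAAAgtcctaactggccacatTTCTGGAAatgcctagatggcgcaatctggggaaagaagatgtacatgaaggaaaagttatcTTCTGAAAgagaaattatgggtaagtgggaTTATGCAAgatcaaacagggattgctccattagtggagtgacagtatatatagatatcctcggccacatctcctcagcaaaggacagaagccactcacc
Mptx1: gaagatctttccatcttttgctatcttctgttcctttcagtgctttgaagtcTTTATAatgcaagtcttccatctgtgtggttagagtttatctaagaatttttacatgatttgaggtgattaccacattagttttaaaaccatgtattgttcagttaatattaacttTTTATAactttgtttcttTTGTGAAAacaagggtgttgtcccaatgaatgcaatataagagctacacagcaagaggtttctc
Reg3b: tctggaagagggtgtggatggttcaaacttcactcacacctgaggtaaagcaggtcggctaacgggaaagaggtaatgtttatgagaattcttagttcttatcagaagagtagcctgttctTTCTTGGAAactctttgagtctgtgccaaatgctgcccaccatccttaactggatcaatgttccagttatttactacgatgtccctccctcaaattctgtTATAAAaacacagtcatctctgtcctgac
Reg3g: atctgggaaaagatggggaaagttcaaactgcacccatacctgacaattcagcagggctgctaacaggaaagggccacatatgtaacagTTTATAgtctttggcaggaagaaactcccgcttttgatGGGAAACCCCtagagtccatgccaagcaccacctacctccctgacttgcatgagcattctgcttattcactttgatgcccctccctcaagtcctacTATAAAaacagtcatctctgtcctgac
These stretches lie at chr7:46742981-46743230 (minus strand) for Saa1, chr7:46751583-46751832 (plus) for Saa2, chr7:46715677-46715926 (minus) for Saa3, chr1:174330268-174330517 (plus) for Mptx1, chr6:78370635-78370884 (plus) for Reg3b and chr6:78468875-78469124 (minus) for Reg3g.

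The promoters of Saa1 and Saa2 were identical at 94.8% of aligned positions (238 of 251) and those of Reg3b and Reg3g at 68.9% (177 of 257), while the other 34 pairs among the 9 promoters reached 45.6% to 53.5%. The C/EBP motif was found in 5 of the 9 promoters, against 36.8% of 32851 promoters of the same length. Saa3 held 4 matches, Saa1 held 2, and Saa2, Mptx1 and Lcn2 held 1 each. Lcn2 was not called against control, and Pigr, lower in every knockdown array, held no match to any motif searched. Saa1 and Saa2 share the match TTGCACAA, and only Saa1 has TTTCCCAA. The STAT motif was found in Reg3b and Ang4, 2 of 9 promoters against 7.02% of all. The NF-kB motif was found in Reg3g alone of the 9, as GGGAAACCCC, against 3.90% of all. The core promoter motif was found on either strand in 3 of the 9, against 12.4% of all. In Reg3b and Reg3g it began 29 and 27 bases before the start. In Mptx1 both matches lay on the opposite strand, beginning 198 and 82 bases before the start. A match is a string of letters and does not show that a factor binds there.

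Dhx9 was lower in all 6 knockdown arrays (8.18 to 8.27 on the log2 scale) than in the 3 control arrays (9.18 to 9.32), and DHX9-837 differed from DHX9-1271 by only -0.02 (SE 0.051, limma adjusted p = 0.908). All values are log2 array signals, so a difference of 1 is a doubling of signal, and levels of different genes cannot be compared. A gene was tested where its mean over the 9 arrays was at least 5.28, the 30th percentile, which left 16808 genes. It was called where its limma p, adjusted by Benjamini and Hochberg over those genes, was under 0.05. The array medians lay between 6.25 and 6.29, and arrays of the same group correlated across genes at 0.979 to 0.995.

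Of the 10 genes, 9 passed this filter and Saa2 did not. Against control with both hairpins pooled, Saa1, Saa3, Mptx1 and Pigr (4 of 9) were called lower and none was called higher. In the same comparison 13.5% of all tested genes were called in either direction, and since the genes were selected on these contrasts nothing is read from the count. DHX9-1271 against control gave 2 calls (Saa1 and Saa3; 4.41% of all genes), and DHX9-837 against control gave the 4 named above (15.6% of all genes). Both comparisons use the same 3 control arrays. The median difference of the 9 genes was -0.28 with both hairpins, -0.79 with DHX9-1271 and -0.29 with DHX9-837, while the medians of all tested genes were 0.0011, 0.0057 and -0.0012.

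**Figure D1:**
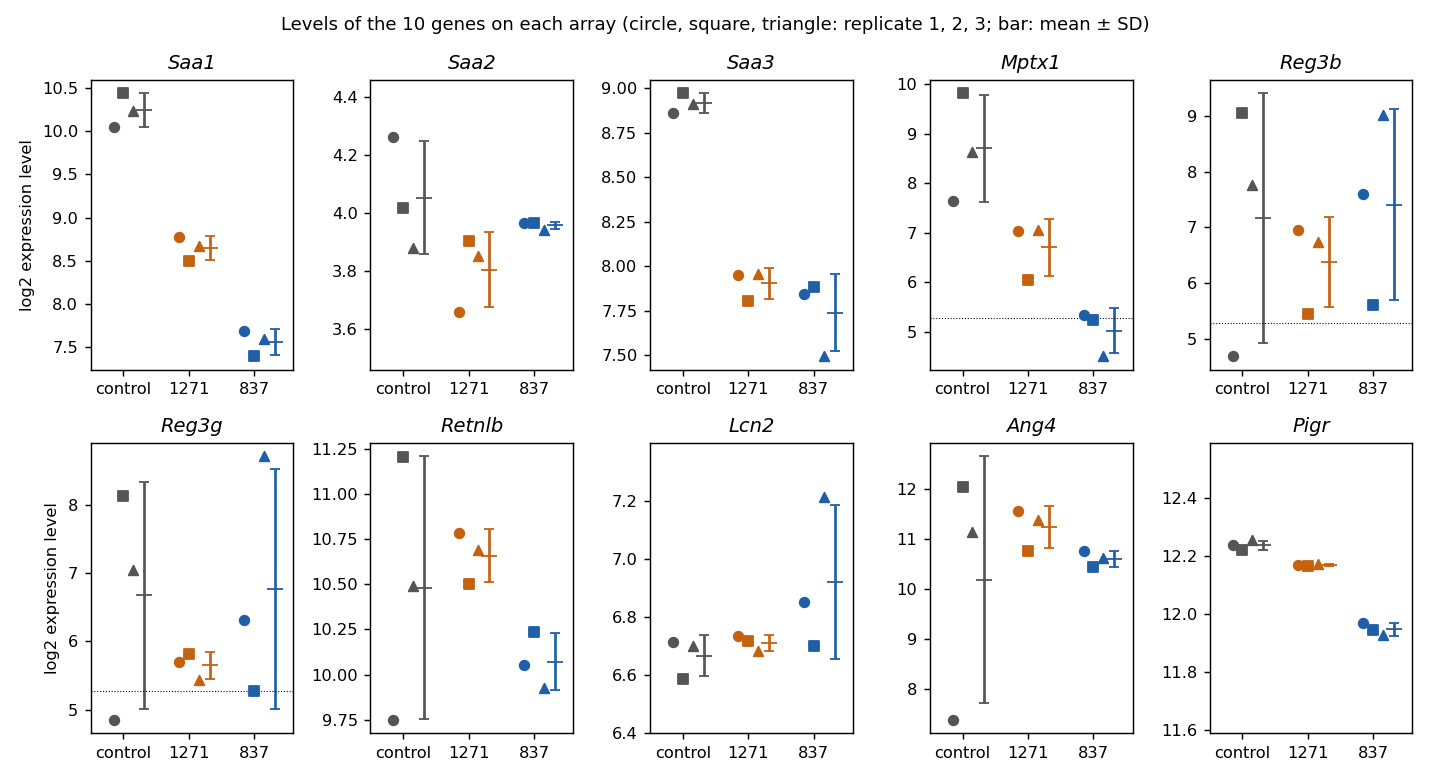
Log2 level (vertical axis, scaled separately in each panel) of the 10 genes on the 3 control, 3 DHX9-1271 and 3 DHX9-837 arrays, with circle, square and triangle for replicates 1, 2 and 3, bars for mean ± SD, and a dotted line at the level filter of 5.28 where it falls in the panel. Saa1 steps down from 10.24 in control to 8.65 and 7.56 without overlap, while control replicates 1 and 2 of Reg3b and Ang4 are the lowest and highest of all arrays.

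Saa1 was lower in every knockdown array than in any control array, and lower still in DHX9-837. Its log2 level was 10.05, 10.44 and 10.24 in control, 8.78, 8.50 and 8.67 in DHX9-1271, and 7.69, 7.40 and 7.60 in DHX9-837. The groups did not overlap, and the steps between them were larger than the spread inside any group (10.24 ± 0.20, 8.65 ± 0.14 and 7.56 ± 0.15, SD, n = 3 each). DHX9-1271 arrays kept 33.2% of the control signal (difference -1.59, SE 0.12) and DHX9-837 arrays kept 15.6% (-2.68, SE 0.12). The direct comparison of both lines was called. Its difference does not involve the control arrays, but its error does, since the fit shares 1 spread over all 3 groups. DHX9-837 held 47.0% of the DHX9-1271 signal, a difference of -1.09 (SE 0.12, 95% interval -1.35 to -0.82, limma adjusted p = 0.00583), lower in 3 of 3 arrays. An exact two-sided permutation of the 6 arrays gave p = 0.1, the smallest that 3 arrays against 3 allow.

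Saa3, the family member known from fat cells and macrophages as well as epithelium, was also lower in each knockdown array than in each control array, but both lines lay at a similar level. Its log2 level was 8.86, 8.97 and 8.91 in control, 7.95, 7.81 and 7.96 in DHX9-1271, and 7.84, 7.88 and 7.49 in DHX9-837. The arrays of the knockdown lines overlapped. Control averaged 8.92 ± 0.057, DHX9-1271 7.90 ± 0.085 and DHX9-837 7.74 ± 0.21 (SD, n = 3), so that 49.6% and 44.3% of the control signal were left (differences -1.01 and -1.18, SE 0.0996). Between the lines the difference was -0.16 (SE 0.0996, 95% interval -0.39 to 0.062, limma adjusted p = 0.524), and the interval leaves room for a fall of up to 0.39.

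Saa2 gave a signal under the level filter in all 9 arrays, between 3.66 (DHX9-1271 replicate 1) and 4.26 (control replicate 1), and was not tested. The group means were 4.05 in control, 3.80 in DHX9-1271 and 3.96 in DHX9-837. Saa1 and Saa2 are close copies of each other, and the sources used here do not say which transcript each probe set measures, so the split of signal between them is uncertain.

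The serum amyloid A genes lie side by side on chromosome 7, and the genes around them were read off as a check on the locus. Counting only protein-coding genes with a probe set, 9 others lay within 4 places of Saa1, Saa2 or Saa3, and 6 of them were tested. Around all members 35 neighbours were tested, and in the pooled contrast 2 were called higher and 3 lower. In that contrast, where 13.5% of all tested genes were called, 1 of the 6 was called lower and 0 higher. That gene, named here after its values were seen, is Hps5, the neighbour of Saa2, which encodes a subunit of a complex that builds lysosome-related organelles. Hps5 read 8.78, 8.51 and 8.71 in control, 7.96, 7.96 and 7.92 in DHX9-1271, and 7.51, 7.62 and 7.65 in DHX9-837. All 3 groups were separate, in the same order as for Saa1. The pooled difference from control was -0.90 (SE 0.064, limma adjusted p = 0.000163), and DHX9-837 differed from DHX9-1271 by -0.36 (SE 0.074, limma adjusted p = 0.0503), just short of a call. Saal1, Tph1 and Sergef on one side and Gtf2h1 and Ldha on the other were not called in any of the 4 contrasts, and Saa4, Kcnc1 and Ldhc were below the filter.

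**Figure D2:**
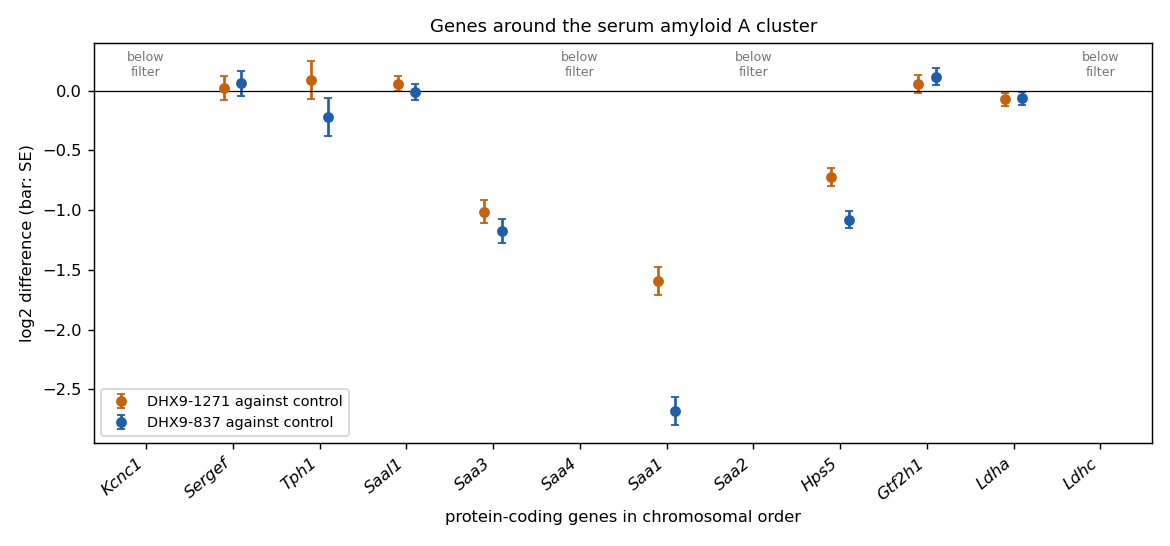
Log2 difference from control (vertical axis, bars are SE) of the protein-coding genes with a probe set around the serum amyloid A cluster on chromosome 7, in chromosomal order, for DHX9-1271 and DHX9-837. Saa3, Saa1 and Hps5 lie well below 0, while the other 5 tested genes lie closer to 0, and both sets of points share the control arrays.

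Mptx1 showed the largest difference from control of the 10 genes. Its log2 level was 7.65, 9.83 and 8.64 in control, 7.03, 6.05 and 7.05 in DHX9-1271, and 5.34, 5.24 and 4.51 in DHX9-837. The order was the same as for Saa1, with no overlap between any groups, but the control arrays alone spanned more than 2 log2 units (8.71 ± 1.09, 6.71 ± 0.57 and 5.03 ± 0.45, SD, n = 3). DHX9-1271 kept 25.1% of the control signal (difference -1.99, SE 0.51) and DHX9-837 kept 7.82% (-3.68, SE 0.51). The DHX9-837 mean lies under the level filter of 5.28, so the size of that difference is uncertain. Between the lines the difference was -1.68 (SE 0.51, 95% interval -2.84 to -0.52), lower in 3 of 3 DHX9-837 arrays, and it was not called (limma adjusted p = 0.158). The DHX9-1271 difference from control was likewise not called, except with control replicate 1 left out (-2.52), with a stricter level filter, or with array weights.

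Over the 9 arrays the genes whose profiles lay nearest to Saa1 and Mptx1 were gasdermin C genes. Likeness was measured as the mean absolute difference between profiles, each centred on its own mean. Steps between the groups enter this measure, so for genes that differ between groups it does not show that profiles vary together within a group. Gsdmc3 lay 0.191 from Saa1, whose own mean deviation was 0.95, followed by Sycn (0.238), which encodes syncollin, and Gsdmc2 (0.269). Gsdmc3 read 11.18, 12.12 and 11.65 in control, 10.60, 10.06 and 10.48 in DHX9-1271, and 9.20, 9.26 and 9.01 in DHX9-837. Gsdmc2 (0.318) and Gsdmc3 (0.461) were also the nearest to Mptx1, whose own mean deviation was 1.36, and Saa1 itself came next at 0.540. Nearest to Saa3, whose own mean deviation was 0.486, were Dhx9 (0.0936), the carboxylesterase gene Ces1d (0.104) and the sialyltransferase gene St6galnac6 (0.139). Gsdmc2 and Gsdmc3 are close copies, and their signals may not be independent.

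**Figure D3:**
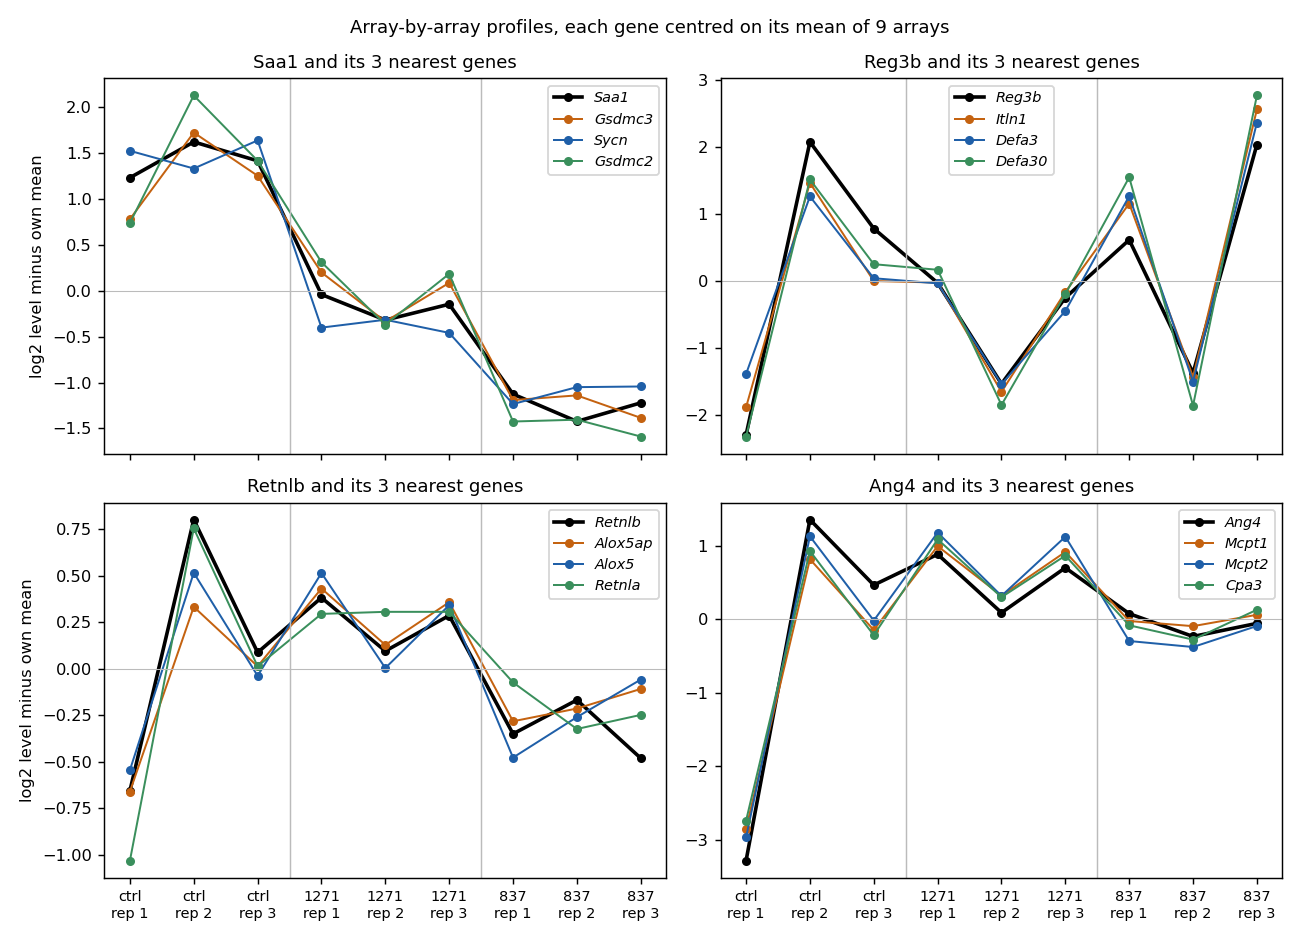
Log2 level minus the gene's own mean of 9 arrays (vertical axis) for Saa1, Reg3b, Retnlb and Ang4, each with its 3 nearest genes, across the arrays in group order. Saa1 steps down by group with Gsdmc3, Sycn and Gsdmc2, whereas Reg3b with Itln1, Defa3 and Defa30 varies within each group, and control replicate 1 is the lowest point of all 4 lines in the Retnlb and Ang4 panels.

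Pigr moved little but very evenly. Its log2 level was 12.24, 12.22 and 12.25 in control, 12.17, 12.17 and 12.17 in DHX9-1271, and 11.97, 11.94 and 11.93 in DHX9-837. The 3 groups did not overlap, and the residual SD of 0.0153 was smaller than that of all but 0.244% of tested genes. DHX9-1271 arrays held 95.4% of the control signal (difference -0.068, SE 0.039) and DHX9-837 arrays 81.7% (-0.29, SE 0.039). DHX9-837 was lower than DHX9-1271 by test (difference -0.22, SE 0.039, 95% interval -0.31 to -0.13, limma adjusted p = 0.0312), with 85.7% of its signal, in 3 of 3 arrays. This call was lost when any 1 of the 6 hairpin arrays was left out (adjusted p = 0.0834 to 0.137, difference -0.23 to -0.21), while the direction held each time. Nearest to Pigr, whose own mean deviation was 0.114, were Zmiz1 (0.0183), Mettl7b (0.0189) and Ankib1 (0.0225).

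Around Pigr, 17 genes of IgA production and transport were tested. Of all tested genes 13.5% were called with both hairpins, 4.41% with DHX9-1271 and 15.6% with DHX9-837. Of the 17, 0 rose and 2 fell with both hairpins, with a list median of 0.030, and the same 2 fell with DHX9-1271 and with DHX9-837. They were Tnfsf13 (pooled difference -0.64, SE 0.080, limma adjusted p = 0.00171), which encodes the plasma cell survival factor APRIL, and Tnfsf13b (-0.50, SE 0.089, limma adjusted p = 0.00824), which encodes its relative BAFF. Igha, the constant region of IgA, read 12.37, 12.31 and 12.34 in control, 12.22, 12.38 and 12.24 in DHX9-1271, and 12.58, 12.57 and 12.49 in DHX9-837. It rose in DHX9-837 against control (0.21, SE 0.056, limma adjusted p = 0.0365). Its difference between the lines was 0.27 (limma adjusted p = 0.0530). There 0 of the 17 genes were called in either direction, against 1.90% of all tested genes.

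Reg3b and Reg3g varied from array to array more than between groups. Reg3b read 4.68, 9.05 and 7.76 in control, 6.95, 5.44 and 6.73 in DHX9-1271, and 7.59, 5.60 and 9.01 in DHX9-837. Its lowest and highest arrays were both controls, 20.7-fold apart. Reg3g read 4.85, 8.12 and 7.04 in control, 5.70, 5.81 and 5.43 in DHX9-1271, and 6.32, 5.27 and 8.71 in DHX9-837. The same arrays were high for both genes in the control and DHX9-837 groups, namely control replicate 2 and DHX9-837 replicate 3. All 3 groups overlapped for Reg3b. For Reg3g the DHX9-1271 arrays lay within the range of the other groups. The mean was 7.17 ± 2.25, 6.37 ± 0.81 and 7.40 ± 1.71 for Reg3b and 6.67 ± 1.67, 5.65 ± 0.20 and 6.77 ± 1.76 for Reg3g (control, DHX9-1271, DHX9-837; SD, n = 3).

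Neither gene differed between the lines by test. DHX9-837 minus DHX9-1271 was 1.03 for Reg3b (SE 1.14, 95% interval -1.56 to 3.62, limma adjusted p = 0.769) and 1.12 for Reg3g (SE 0.95, 95% interval -1.02 to 3.26, limma adjusted p = 0.673). The intervals span changes of several fold in either direction. Their residual SDs exceeded those of 99.9% of tested genes. The pooled difference from control turned from -0.28 to 0.67 for Reg3b, and from -0.47 to 0.26 for Reg3g, when control replicate 2 was left out, and came to -1.52 and -1.38 without control replicate 1.

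Genes of Paneth cells and of the small intestine moved between the same arrays. Nearest to Reg3b, whose own mean deviation was 1.22, were Itln1 (0.349), which encodes the lectin intelectin-1, and the Paneth cell defensin genes Defa3 (0.420) and Defa30 (0.426). Itln1 read 5.80, 9.15 and 7.68 in control, 7.66, 6.03 and 7.52 in DHX9-1271, and 8.84, 6.25 and 10.24 in DHX9-837. Nearest to Reg3g, whose own mean deviation was 1.06, were the peptide transporter gene Slc15a1 (0.419), the brush-border peptidase gene Anpep (0.467) and the defensin gene Defa39 (0.470). The list of 17 Paneth cell and small-intestinal markers, all tested, had a mean level of 6.76, 8.73 and 7.96 in control, 7.57, 6.53 and 7.39 in DHX9-1271, and 8.56, 6.92 and 9.49 in DHX9-837. With both hairpins 13.5% of all tested genes were called. Of the 17 markers 0 rose and 2 fell, Alpi (-0.66, limma adjusted p = 0.0145) and Fabp2 (-0.23, limma adjusted p = 0.0408). The part of these markers in the Reg3b and Reg3g values was not tested.

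In Ang4 and Retnlb, as in Reg3b and Reg3g, control replicate 1 was the lowest array. Ang4 read 7.38, 12.03 and 11.14 in control, 11.55, 10.76 and 11.37 in DHX9-1271, and 10.75, 10.44 and 10.61 in DHX9-837. Control replicate 1 was the lowest and control replicate 2 the highest of all 9 arrays, 25.0-fold apart. Retnlb read 9.75, 11.21 and 10.49 in control, 10.79, 10.50 and 10.69 in DHX9-1271, and 10.05, 10.24 and 9.92 in DHX9-837. The same control arrays were again the lowest and the highest, 2.74-fold apart. Within the knockdown lines both genes were tighter (Ang4 11.23 ± 0.42 and 10.60 ± 0.16; Retnlb 10.66 ± 0.15 and 10.07 ± 0.16, SD, n = 3), and every DHX9-837 array lay below every DHX9-1271 array.

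By test, the difference between the lines was -0.63 for Ang4 (SE 0.97, 95% interval -2.84 to 1.58, limma adjusted p = 0.844) and -0.59 for Retnlb (SE 0.30, 95% interval -1.26 to 0.087, limma adjusted p = 0.428), and neither was called. These errors take in the wide control spread, since the fit shares 1 spread over all 3 groups. Without control replicate 1 the adjusted p of the line difference was 0.307 for Ang4 and 0.161 for Retnlb. Without that array Retnlb in DHX9-837 differed from control by -0.78, which crossed the calling threshold, in place of -0.41, and the pooled difference of Ang4 from control was -0.67 in place of 0.73.

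Nearest to Ang4, whose own mean deviation was 0.795, were the mucosal mast cell protease genes Mcpt1 (0.278) and Mcpt2 (0.280) and the mast cell carboxypeptidase gene Cpa3 (0.291). Mcpt1 read 8.03, 11.69 and 10.73 in control, 11.87, 11.20 and 11.79 in DHX9-1271, and 10.85, 10.78 and 10.94 in DHX9-837. Nearest to Retnlb, whose own mean deviation was 0.367, were Alox5ap (0.132) and Alox5 (0.160), which act in leukotriene synthesis, and Retnla (0.164), the neighbouring resistin-like gene. Retnla read 6.91, 8.70 and 7.96 in control, 8.24, 8.25 and 8.25 in DHX9-1271, and 7.87, 7.62 and 7.69 in DHX9-837. In all of these genes control replicate 1 was lower than control replicates 2 and 3. The goblet cell list (14 of 14 markers tested) had a mean level of 10.43 to 10.66 in control, 10.68 to 10.69 in DHX9-1271 and 10.59 to 10.60 in DHX9-837. With both hairpins 3 of the 14 rose and 1 fell, against 13.5% of all tested genes called. With DHX9-1271 alone 3 rose and 0 fell (4.41% of all genes called), and with DHX9-837 alone 4 rose and 4 fell (15.6%). The part of mast cells or goblet cells in the Ang4 and Retnlb values was not tested.

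Lcn2, which rises sharply in the inflamed gut, lay in a narrow range. It read 6.71, 6.58 and 6.70 in control, 6.73, 6.71 and 6.68 in DHX9-1271, and 6.85, 6.70 and 7.21 in DHX9-837. The groups overlapped, and DHX9-837 replicate 3 was the highest array, 1.55-fold above the lowest. DHX9-837 minus DHX9-1271 was 0.21 (SE 0.11, 95% interval -0.047 to 0.47, limma adjusted p = 0.461), and 0.064 without DHX9-837 replicate 3. Nearest to Lcn2, whose own mean deviation was 0.119, were Slc16a10 (0.0355), B3gnt7 (0.0492) and Sik1 (0.0574), each of which was also highest in DHX9-837 replicate 3. Neutrophils carry lipocalin-2 in their granules. Of 14 neutrophil markers 5 passed the level filter, and the defining genes S100a8, S100a9 and Ly6g did not. The mean of the 5 was 5.71 to 5.78 in control, 5.71 to 5.83 in DHX9-1271 and 5.81 to 5.90 in DHX9-837. With both hairpins 1 of them, Mmp9, rose (0.45, limma adjusted p = 0.00762), where 13.5% of all tested genes were called.

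Between DHX9-837 and DHX9-1271, then, 2 of the 9 tested genes were called, Saa1 and Pigr, both lower in DHX9-837, where 1.90% of all genes were called in either direction. The median difference of the 9 genes was -0.22, against -0.0040 over all genes. Counted without a model, every DHX9-837 array lay below every DHX9-1271 array for 5 of the 9 (Saa1, Mptx1, Retnlb, Ang4 and Pigr), as for 12.6% of all tested genes. Every knockdown array lay below every control array for 4 of the 9 (Saa1, Saa3, Mptx1 and Pigr), as for 6.73% of all, and the full order of DHX9-837 below DHX9-1271 below control held for 3 of the 9 (Saa1, Mptx1 and Pigr), as for 2.41% of all. The last 2 counts involve the contrasts with control. All counts here come from arrays whose results were known when the genes were picked.

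**Figure D4:**
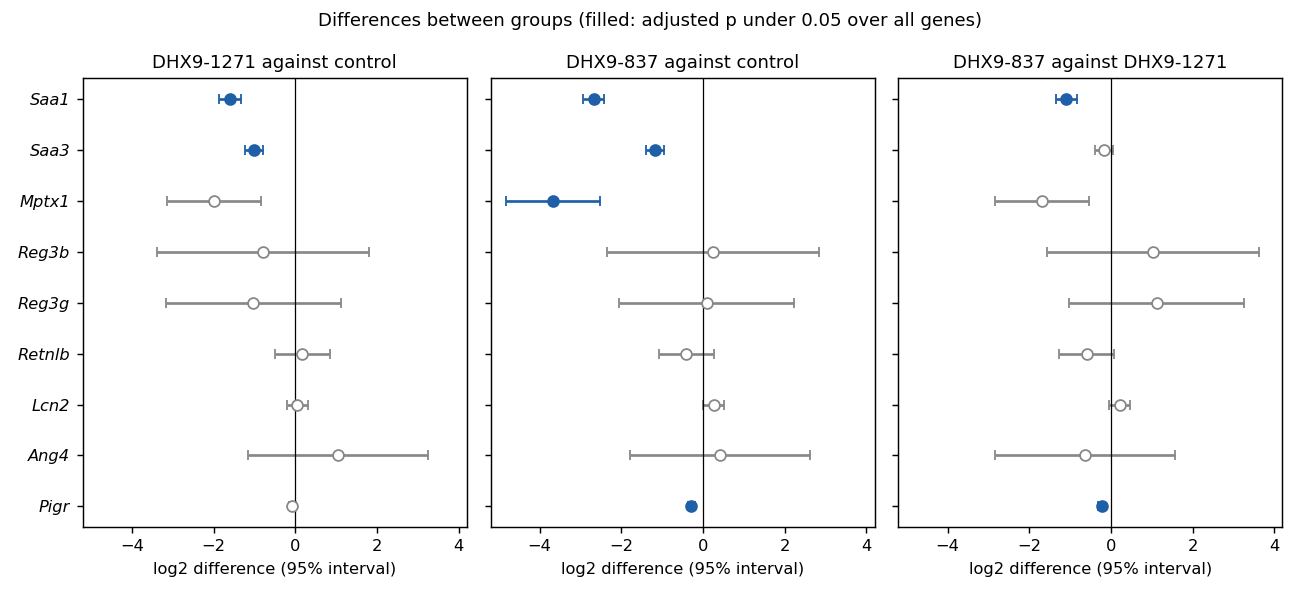
Log2 differences (horizontal axis) of the 9 tested genes for DHX9-1271 against control, DHX9-837 against control and DHX9-837 against DHX9-1271, with bars for the 95% interval and filled points for adjusted p under 0.05. Saa1 and Pigr, at -1.09 and -0.22, are the filled points in the comparison of the lines, where the intervals of the other genes except Mptx1 cross 0.

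The cytokine pathways upstream of these genes are given next, from lists drawn up with earlier results of these arrays known. Over all tested genes 13.5% were called with both hairpins, 4.41% with DHX9-1271, 15.6% with DHX9-837 and 1.90% between the lines. Of 20 tested genes of IL-22, IL-6 and STAT3 signalling, 1 rose and 2 fell with both hairpins (list median -0.017). Bcl3, which encodes a modulator of NF-kB, rose by 0.27 (SE 0.065, limma adjusted p = 0.0270). Il22ra1 (-0.18, SE 0.047, limma adjusted p = 0.0339) and Il10rb (-0.20, SE 0.043, limma adjusted p = 0.0180), which encode both chains of the IL-22 receptor, fell. Il22 and Il6 themselves were below the filter in these arrays. With DHX9-1271 alone 0 of the 20 were called, with DHX9-837 alone 1 rose and 3 fell, and between the lines 0 were called. Pim1 was just short of a call with both hairpins (-0.23, SE 0.066, limma adjusted p = 0.0539). With DHX9-837 alone Pim1 was called lower (-0.26, limma adjusted p = 0.0479). Stat3 read 9.80 to 9.87 in control, 9.68 to 9.75 in DHX9-1271 and 9.68 to 9.79 in DHX9-837. It was not among the 4 genes of smallest pooled p in this list, and was not called in any contrast.

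Of 27 tested genes of IL-1, TNF and IL-17 signalling and microbial sensing, 3 rose and 7 fell with both hairpins (list median -0.053). Over all tested genes 13.5% were called in this comparison. Il1r1, the IL-1 receptor gene, rose by 0.34 (limma adjusted p = 0.00270) and Il1rn, which encodes the receptor's natural antagonist, by 0.55 (limma adjusted p = 0.00773). Tlr2, a receptor for bacterial lipoproteins, fell (-0.36, limma adjusted p = 0.00691), as did Il18 (-0.78, limma adjusted p = 0.0140), which encodes a cytokine of the IL-1 family made by gut epithelium. With DHX9-1271 alone 1 rose and 1 fell, against 4.41% of all genes called. With DHX9-837 alone 3 rose and 8 fell, against 15.6% of all genes called. Between the lines, where 1.90% of all genes were called, 3 genes of this list were called, named here after their values were seen. Il1rn (0.75, limma adjusted p = 0.0196) and the TNF receptor gene Tnfrsf1a (0.24, limma adjusted p = 0.0466) were higher in DHX9-837, and the inflammasome gene Nlrp6 (-0.33, limma adjusted p = 0.0218) was lower.

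Other effector genes are read against the same 13.5% of all tested genes called with both hairpins. Among 19 tested antimicrobial genes of the gut lining, 1 rose and 2 fell with both hairpins (list median 0.021), and another 14 were below the filter. Duoxa2, the maturation factor of the oxidase DUOX2, rose by 0.34 (limma adjusted p = 0.0403), while Dmbt1 (-0.22, limma adjusted p = 0.0280) and the peptidoglycan-binding protein gene Pglyrp1 (-0.22, limma adjusted p = 0.0373) fell. Among 13 tested acute-phase genes other than Saa1 and Saa3, 2 rose and 2 fell (list median 0.0095), and 8 were below the filter. Serpina3n (0.39, limma adjusted p = 0.0124) and the complement gene C4b (0.62, limma adjusted p = 0.000960) rose, and complement factor B, Cfb (-0.44, limma adjusted p = 0.00528), and the endotoxin co-receptor gene Cd14 (-0.43, limma adjusted p = 0.00470) fell. With DHX9-1271 alone, against 4.41% of all genes called, Pglyrp1 was called among the antimicrobial genes and Serpina3n and C4b among the acute-phase genes. With DHX9-837 alone, against 15.6% of all genes called, 1 antimicrobial gene rose and 3 fell, and Pglyrp1 was not called. The falls included Dmbt1 and also Ang (-0.48, limma adjusted p = 0.0121), which was not called with both hairpins. The acute-phase calls with DHX9-837 were the same as with both hairpins. In neither list was a gene called between the lines.

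Serum amyloid A proteins can carry retinol, as given above. Of 23 tested retinoid genes, 2 rose and 3 fell with both hairpins (list median -0.0018), where 13.5% of all tested genes were called. The rises were Dhrs9 (0.43, limma adjusted p = 0.00975) and Scarb1 (0.26, limma adjusted p = 0.0146). Dhrs3, which turns retinal back into retinol (-0.48, limma adjusted p = 0.00147), and Isx, which encodes a retinoid-responsive repressor of Scarb1 and Bco1 (-0.30, limma adjusted p = 0.00423), fell. So did Aldh1a1 (-0.31, limma adjusted p = 0.0469), which was not called against control in either line alone. With DHX9-1271 alone 0 rose and 2 fell (Dhrs3 and Isx), against 4.41% of all genes called. With DHX9-837 alone 4 rose, among them Dhrs9 and Scarb1, and 2 fell (Dhrs3 and Isx), against 15.6% of all genes called. Between the lines 1 gene was called, Bco1, which encodes the enzyme that splits carotene (0.32 higher in DHX9-837, limma adjusted p = 0.0436). Over all tested genes 1.90% were called there.

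Marker lists of the cells these samples could hold are given next, with counts for both hairpins against control, where 13.5% of all tested genes were called. All 14 general epithelial markers were tested, with a mean level of 10.58 to 10.64 in control, 10.64 to 10.69 in DHX9-1271 and 10.66 to 10.74 in DHX9-837, where 2 rose and 1 fell with both hairpins. The mean of 16 colonocyte markers was 11.09 to 11.13, 11.05 to 11.10 and 11.08 to 11.14 in the same order of groups, with 2 called higher and 5 lower. Macrophage markers (12 tested, 5 rose, 1 fell) had means of 7.36 to 7.39 in control, 7.50 to 7.58 in DHX9-1271 and 7.59 to 7.67 in DHX9-837. Adipocyte markers (8 tested, 1 rose, 1 fell, with Adipoq and Lep below the filter) had means of 7.45 to 7.68, 7.42 to 7.52 and 7.76 to 7.87. B and plasma cell markers (14 tested, 5 rose) had means of 7.79 to 7.86, 7.94 to 8.31 and 8.04 to 8.29, and fibroblast markers (11 tested, 5 rose) had means of 8.79 to 9.08, 9.17 to 9.27 and 9.11 to 9.21. Of the markers of T cells and innate lymphoid cells 1 of 11 rose, of posterior colon 0 of 4 and of smooth muscle 0 of 10 were called. Of the hepatocyte list 2 of 7 tested genes rose, and the defining markers Alb, Ahsg and Fgb were below the filter. Between the lines, where 1.90% of all genes were called, 4 of the 16 colonocyte markers were lower and 1 was higher in DHX9-837, and 3 of the 8 adipocyte markers were higher. In the same comparison 1 general epithelial marker was higher and 1 goblet cell marker lower, and the other marker lists held no call. The part of these cell types in the values of Saa1, Pigr and the other members was not tested.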

How the data were processed

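Affymetrix Mouse Gene 2.0 ST arrays read the RNA of mouse large intestine, 3 per group. Titles of the samples gave groups and replicate numbers. Per the submitters' processing notes, the authors used RMA (R 3.1.1, oligo 1.30.0), and they deposited log2 levels of 24973 probe sets. The sources used here give neither the definition of the probe sets nor the build. RMA normalizes by quantiles, so a shift shared by most genes would not be seen.

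The platform's probe table named 24015 probe sets, and 958 were not listed. The brighter probe set was kept for each of 24011 genes. Genes under the 30th percentile of mean level were left out. Limma 3.58.1 in R 4.3.3 fitted group means over all 9 arrays without trend, with two-sided p-values adjusted over 16808 genes by Benjamini and Hochberg, and the pooled contrast is the average of the hairpin groups' means less that of control. The code was tested on simulated data.

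The members and lists were chosen with earlier results of these data known. All members were named, as were up to 4 genes of smallest pooled p per pathway list and up to 2 per marker list. The 3 nearest genes per member were named too, with predicted genes, small RNAs, antigen receptor segments and clone names to be passed over (0 were). Outside this rule, values were also given for Stat3, Igha, Aldh1a1, Bco1, Tnfrsf1a, Nlrp6 and Hps5. Xbp1 and Tgfb1 of the IgA list came under the rule but were not described, and neither was called in any contrast. Neighbours are the protein-coding genes with a probe set up to 4 places away in the RefSeq table. Genes without a probe set were skipped when places were counted. Same-numbered arrays of different groups correlated in their deviations at -0.366 to 0.261, over 0.1 in 2 of 9 pairs, so replicate numbers were not treated as pairs. Alternatives covered the filter, probe set rule, centring, cyclic loess, moderation, array weights, arrays compared alone, the block, a limit of 1.5-fold and each array left out in turn. No read depth exists for arrays, and their number limits the precision. Figures used matplotlib 3.10.9 in Python 3.11.15, and promoters were aligned with Biopython 1.88.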

Additional observations from a re-analysis of the deposited data

Results flagged for a closer look

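The lines DHX9-1271 and DHX9-837 had different levels of Saa1 and Pigr at like levels of Dhx9, by a direct test of the difference. DHX9-837 minus DHX9-1271 was -1.09 for Saa1 and -0.22 for Pigr, with limma adjusted p = 0.00583 and 0.0312 over 16808 genes. The genes were picked with results of these arrays known, so these p-values are not independent of that choice. The Pigr call held in 11 of 20 alternatives, whereas Saa1 was called in 20 of 20. Among these, taking the mean of a gene's probe sets could not change a member, since each member has 1 probe set. Pigr lost its call with no level filter, with the replicate block and at a limit of 1.5-fold. The same happened on leaving out any 1 of the 6 hairpin arrays. The hairpin sequence and the mouse line that carries it cannot be told apart.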

How the results depend on the processing

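Saa1 and Saa3 stayed lower than control and called in both lines under all alternatives run, and no called difference changed sign. Against control, Mptx1 in DHX9-1271 gained a call in 3 of 20 alternatives and Retnlb in DHX9-837 in 1 of 20. The count of members called between the lines was 1 in place of 2 with no level filter, with the replicate block and at a limit of 1.5-fold, and 1 to 2 when each array was left out in turn. The gene lost each time was Pigr, called in 11 of 20 alternatives (limma adjusted p = 0.00277 to 0.137). The causes were not tested. Saa1 was called between the lines in 20 of 20 (difference -1.16 to -1.01, limma adjusted p = 0.00139 to 0.0491). The mean of a gene's probe sets, which could not change a member with 1 probe set, is counted among the 20. The replicate block left the members called against control at 4 pooled, 2 for DHX9-1271 and 4 for DHX9-837. The 1.5-fold limit removed Pigr from the calls against control. Reg3b, Reg3g, Retnlb and Ang4 changed sign in the pooled contrast when 1 array was left out, with no call. For Mptx1 in DHX9-837 the mean signal lies under the level filter.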
